A study of Homo sapiens with 12 samples.

Results

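The 120 long intergenic non-coding RNAs (lincRNAs) described here are the best expressed of their class in 2 human lung cancer cell lines, H1299 and H1703, treated with the histone deacetylase inhibitor SAHA (vorinostat) or its solvent DMSO. They are the genes whose deposited type is lincRNA, H19 left out, and whose mean over all 12 libraries reached 5 counts per 1000000 (CPM), out of 7358 lincRNAs and 58302 genes in all. That mean includes the SAHA libraries, so it is these levels that chose the genes. AC012615.1 (5.01 CPM), EIF3J-DT (5.16 CPM) and LINC00460 (5.20 CPM) lay just inside the threshold, and AC092747.4 (4.95 CPM), LINC01694 (4.93 CPM) and AP000547.3 (4.89 CPM) just outside. Of the 120 genes, 49 had a mean of 5 CPM or more in all 4 groups, 17 in 3 groups, 42 in 2 groups and 12 in 1 group.

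Each line was sequenced after DMSO and after SAHA, which makes 4 groups of 3 libraries. Cells were treated for 24 h. The labels list 0, 2.5, 10 and 40 µM SAHA with 0.1% DMSO as vehicle, and the dose behind the sequenced libraries is not stated. The series sets the lines as models of lung adenocarcinoma and lung squamous cell carcinoma, and each histology is represented by 1 line. No label says that the 3 samples of a group came from separate cultures, so the p-values cover the spread among the sequenced libraries alone, and that spread may be technical.

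LincRNAs are transcripts made from their own promoters between protein-coding genes. Many stay in the nucleus and act as scaffolds for proteins or guides to chromatin, some carry small RNAs in their introns or exons, and others bind proteins or microRNAs in the cytoplasm. Histone deacetylases remove acetyl groups from histones and other proteins, and inhibitors such as SAHA raise acetylation across the genome. The libraries were made from poly(A) RNA, so a lincRNA was measured as far as its molecules were kept by poly(A) selection.

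The libraries held 14.4 × 1000000 to 19.4 × 1000000 counts. The 120 lincRNAs took 0.235% to 0.257% of all counts in the H1299 controls and 0.354% to 0.379% after SAHA. In H1703 the shares were 0.135% to 0.141% and 0.206% to 0.226%, and the treatments of a line did not overlap. Mitochondrial genes moved in the same direction, from 1.96% to 2.22% of counts up to 4.0% to 4.23% in H1299, and from 5.44% to 6.27% up to 8.77% to 10.9% in H1703; their part in the results was not tested. Epithelial markers (8 genes, keratins and claudins among them) summed to 593 to 616 CPM in the H1299 controls, 1360 to 1590 CPM after SAHA, 3980 to 4440 CPM in the H1703 controls and 2970 to 3430 CPM after SAHA. Fibroblast markers (6 genes) summed to 1.54 to 2.72, 38.3 to 51.1, 63.1 to 72.8 and 114 to 127 CPM in the same order, endothelial markers (4 genes) to 1.54 to 1.81, 15.1 to 20.1, 0.817 to 1.15 and 7.73 to 9.99 CPM, and myeloid markers (5 genes) to 25 to 45.5, 24.1 to 28.2, 29.9 to 49.6 and 86.5 to 96.9 CPM. Lymphoid markers (6 genes) summed to at most 1.14 CPM, and 4 and 5 of them were at 0 in the controls of H1299 and H1703. A sum follows its most abundant genes: in H1703, KRT7 alone went from a mean of 2180 CPM to 613 CPM. Of the 8 epithelial markers there, 4 were higher with SAHA and 2, KRT7 among them, lower at an adjusted p under 0.05 in edgeR's test. The shares of all genes were 34.7% higher and 32.6% lower. The part of these marker genes in the results was not tested. In bulk RNA, fewer cells of a kind and less RNA per cell cannot be told apart.

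In H1299, 115 of the 120 lincRNAs had enough counts for the test; 69 rose with SAHA, 24 fell and 22 did not pass. The background in the same fit was 33.3% of 17277 genes called higher and 30.4% called lower (63.8% in either direction). A called gene is one with an adjusted p under 0.05 in edgeR's quasi-likelihood test with Benjamini-Hochberg adjustment over all genes tested, and every adjusted p below comes from that test unless another is named. The change was at least 2-fold in 43 of the lincRNAs that rose (background 19.3%) and 9 of those that fell (background 11.1%). Their median log2 fold change was 0.64, against 0.02 over all genes.

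In H1703, 112 were tested; 53 rose, 29 fell and 30 did not pass, beside 34.7% of 17273 genes called higher and 32.6% called lower (67.4% in either direction). The change was at least 2-fold in 35 that rose (background 19.5%) and 12 that fell (background 14.9%), and the median log2 fold change was 0.38, against 0.02 over all genes. The 5 lincRNAs not tested in H1299 were IGFL2-AS1, PURPL, AC092118.1, UCA1 and MEG3. The 8 not tested in H1703 were LINC01896, AC020928.1, DSCR8, AC016590.1, AC012617.1, ZNF667-AS1, FAM225A and FAM225B.

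These counts do not stand for all lincRNAs, since a gene could reach the mean of 5 CPM through the group in which it was high. Among the 57 that had 5 CPM or more under DMSO in both lines, 20 rose and 20 fell in H1299 (median log2 fold change -0.06), and 15 rose and 23 fell in H1703 (median -0.26). All genes that met the same rule were called higher in 24.8% and lower in 39.9% of cases in H1299, and in 28.5% and 40.1% in H1703. With the rule of 5 CPM over the 12 libraries, all genes were called higher in 30.6% and lower in 35.9% in H1299, and in 32.7% and 37.2% in H1703. The excess of rises over falls among the 120 was thus not seen in the 57 chosen on their DMSO levels. Beside all genes under the same rule, more of the 57 rose in H1299 (35.1% against 24.8%) and fewer fell (35.1% against 39.9%). In H1703 the shares were close to those of all genes (26.3% against 28.5% higher, 40.4% against 40.1% lower). The rule on DMSO levels leaves out lincRNAs that were low before SAHA.

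Of the 107 lincRNAs tested in both lines, 41 rose in both, 16 fell in both, 5 rose in H1299 and fell in H1703, and 0 did the reverse. Over the 15654 genes tested in both lines the shares were 23%, 21.9%, 2.89% and 2.1%. The count of 0 was also 0 in DESeq2 and under every other setting tried. The plot of the SAHA effect in both lines shows these groups.

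**Figure D1:**
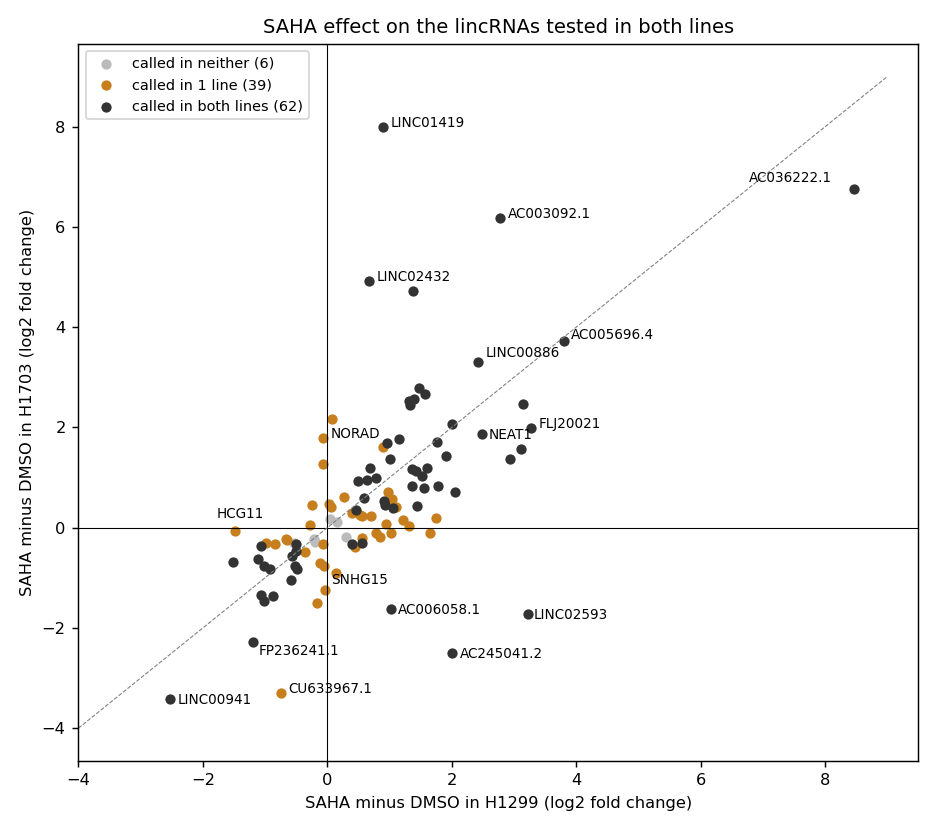
SAHA minus DMSO in H1299 (horizontal axis) against H1703 (vertical axis), both as log2 fold changes, for the 107 lincRNAs tested in both lines, each point 1 gene coloured by the number of lines in which it was called; the dashed line marks equal effects. 41 genes called higher in both lines lie at the upper right and 16 called lower in both at the lower left, LINC02593, AC245041.2 and AC006058.1 lie at the lower right, and the value of LINC01419 in H1703 rests on a DMSO group with 0 counts.

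NEAT1 and MALAT1, neighbours on chromosome 11, are abundant nuclear lincRNAs. NEAT1 (chr11:65422774-65445540, GRCh38) is the RNA scaffold of paraspeckles, nuclear bodies that hold RNA-binding proteins. It stood at 67.3, 55.9 and 93.6 CPM in the H1299 DMSO libraries and at 450, 435 and 376 CPM with SAHA, and at 78.5, 90.9 and 88.6 CPM in H1703 with DMSO and 366, 299 and 262 CPM with SAHA. All SAHA libraries were above all DMSO libraries in both lines. NEAT1 rose 5.59-fold in H1299 (log2 fold change 2.48 ± 0.20 SE, adjusted p = 3e-05) and 3.63-fold in H1703 (1.86 ± 0.13, adjusted p = 1.9e-06). The effect was smaller in H1703 by 0.69 ± 0.24 on the log2 scale (H1703 minus H1299, adjusted p = 0.043). That difference was not called with the replicate block (-0.70, adjusted p = 0.0683), with RLE size factors (-0.63, adjusted p = 0.0651), with no filter on low counts (-0.69, adjusted p = 0.105) or when any 1 of 8 libraries was left out: H1299 DMSO 1 or 2, H1299 SAHA 1 or 2, H1703 DMSO 2 or 3, or H1703 SAHA 2 or 3 (-0.54 to -0.67, adjusted p from 0.074 to 0.0927).

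MALAT1 (chr11:65497762-65506516), a component of nuclear speckles, varied more between libraries. It was at 99.8, 80.2 and 156 CPM in H1299 with DMSO and at 273, 196 and 183 CPM with SAHA, and at 29.9, 42.6 and 13.0 CPM in H1703 with DMSO and 120, 43.1 and 96.5 CPM with SAHA. The groups did not overlap in either line, but the second SAHA library of H1703 lay within 1 CPM of the highest DMSO library. The rise passed in H1299 (0.90 ± 0.29, adjusted p = 0.038) and not in H1703 (1.61 ± 0.61, adjusted p = 0.07), and the difference between the lines did not pass (0.64 ± 0.69, adjusted p = 0.53). The H1703 value passed with DESeq2 (1.64, adjusted p = 0.0145), in 1 fit over 12 libraries (1.59, adjusted p = 0.021) and without H1703 SAHA library 2 (1.93, adjusted p = 0.0436). The H1299 call was lost with the replicate block (0.94, adjusted p = 0.0583), with no filter on low counts (0.90, adjusted p = 0.122), in 1 fit over 12 libraries (0.96, adjusted p = 0.117) and without H1299 DMSO 1 (0.80), DMSO 2 (0.69), SAHA 1 (0.70) or SAHA 2 (0.97), with adjusted p from 0.0773 to 0.121.

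The messenger RNAs of the protein partners of NEAT1 fell while NEAT1 rose; the proteins were not measured. All 14 genes of the paraspeckle protein list were lower with SAHA in H1299 (median log2 fold change -0.71) and 13 of 14 in H1703 (median -0.84), beside 30.4% and 32.6% of all genes called lower. Among genes with 5 CPM or more under DMSO in both lines, the shares called lower were 39.9% and 40.1%. HNRNPH3, an RNA-binding protein of the hnRNP family, fell by 1.53 ± 0.08 in H1299 and 1.66 ± 0.08 in H1703 on the log2 scale. NONO was the member that did not pass in H1703 (-0.12 ± 0.10, adjusted p = 0.3). Of 13 genes of nuclear RNA decay, which removes many unstable non-coding transcripts, 9 fell in H1299 and 4 did not pass (median log2 fold change -0.50). In H1703, 6 fell and 7 did not pass (median -0.29), and 0 rose in either line. The H1703 share was near the 40.1% of genes with 5 CPM or more under DMSO in both lines. EXOSC10, the nuclear exosome ribonuclease, fell by 1.00 ± 0.08 in H1299 and 1.26 ± 0.09 in H1703.

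**Figure D2:**
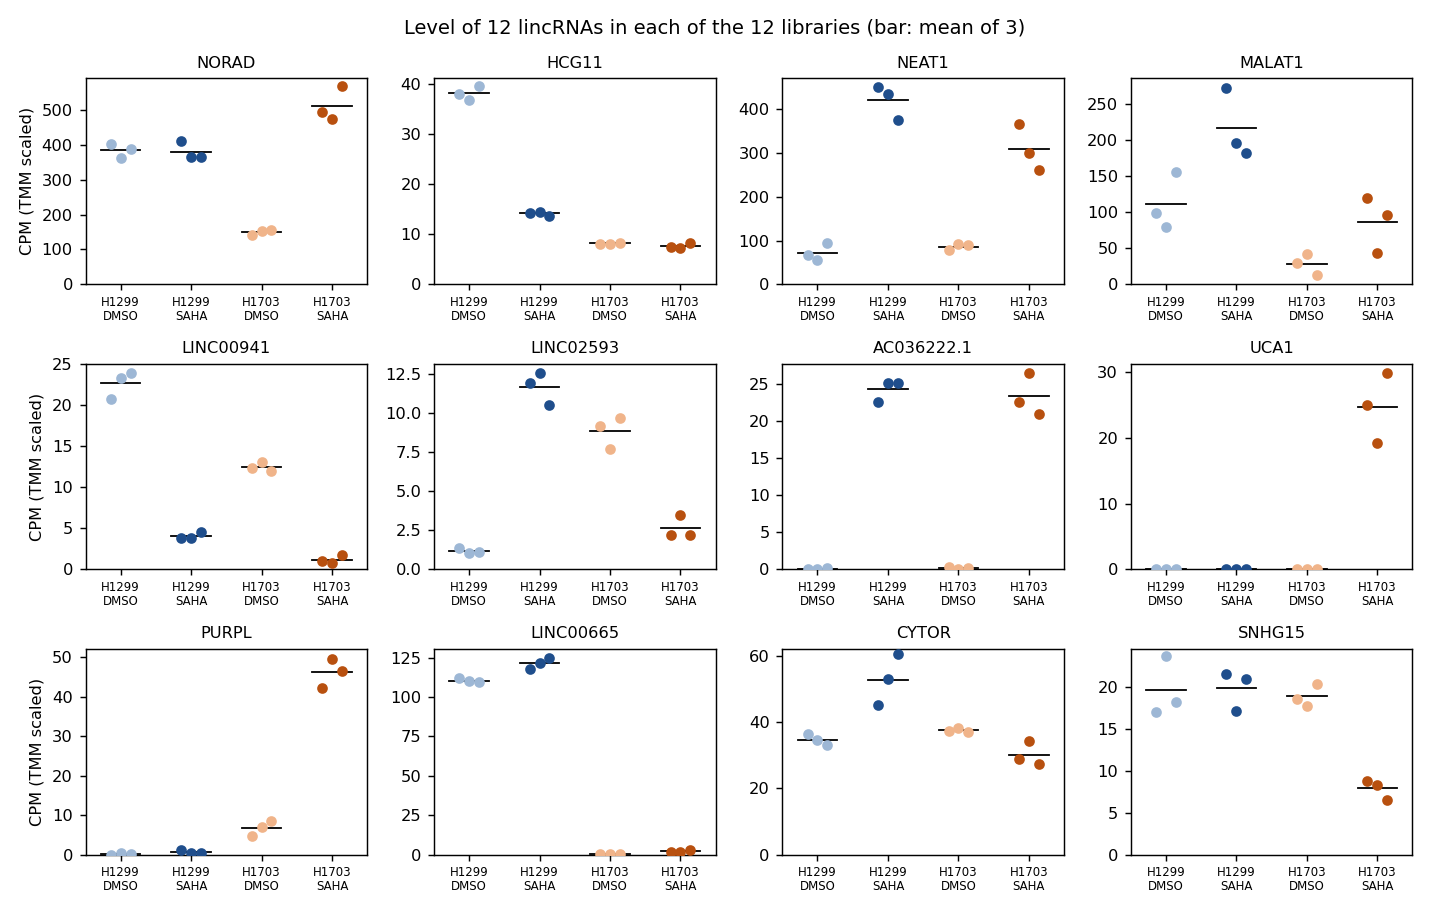
CPM after TMM scaling (vertical axis, linear, from 0) of 12 lincRNAs in each of the 12 libraries, grouped by line and treatment on the horizontal axis; each point is 1 library and each bar the mean of 3. NORAD was raised by SAHA in H1703 alone, HCG11 was lowered in H1299 alone, NEAT1 was raised in both lines, and UCA1 stood near 0 in every group except H1703 with SAHA.

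NORAD (chr20:36045622-36050960), a cytoplasmic lincRNA that binds PUMILIO proteins such as PUM2 through repeated recognition elements, responded in H1703. Its levels were 403, 363 and 388 CPM in H1299 with DMSO and 410, 367 and 365 CPM with SAHA, which overlap. In H1703 they were 141, 154 and 155 CPM with DMSO and 494, 475 and 569 CPM with SAHA, which do not. NORAD rose 3.46-fold in H1703 (1.79 ± 0.09, adjusted p = 2.1e-07) and did not pass in H1299 (-0.07 ± 0.08, adjusted p = 0.5). The 2 lines differed in this effect by 1.79 ± 0.12 (adjusted p = 1.1e-07). Under DMSO, NORAD was 2.56-fold lower in H1703 than in H1299 (adjusted p = 6.5e-09).

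HCG11 (chr6:26521709-26527404) moved the other way in the other line, although the 2 RNAs are copies of related sequence. It stood at 38.0, 36.8 and 39.5 CPM in H1299 with DMSO and at 14.3, 14.5 and 13.7 CPM with SAHA, a fall of 2.80-fold (-1.48 ± 0.10, adjusted p = 2.5e-06). In H1703 it was at 8.11, 8.05 and 8.32 CPM with DMSO and 7.53, 7.32 and 8.28 CPM with SAHA (-0.06 ± 0.13, adjusted p = 0.69). Between the lines the effect differed by 1.35 ± 0.14 (adjusted p = 7.2e-06). The longest GENCODE v44 transcripts of NORAD and HCG11 aligned over 4660 columns with 90.4% identity, and their longest identical run was 117 bases. Reads from such runs can be assigned to either gene, so the level of HCG11, the lower of the 2, is the less certain.

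The PUMILIO element searched was TGTANATA on the transcript strand. NORAD's transcript held 15 and HCG11's 16, while 14.2% of 62700 genes had at least 1 in their longest transcript. As many as in NORAD or more were found in 8 genes, NORAD and HCG11 among them. At least 1 element was found in 33 of the 118 lincRNAs with a v44 transcript. Sites of both RNAs are printed below because they show the shared repeat; the number is the first base of the element in the transcript and the capitals mark the element.
NORAD 819: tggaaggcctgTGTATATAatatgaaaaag
HCG11 760: cggaaggcctgTGTATATAatatgaaaaag
NORAD 1883: aaataccacttTGTAAATAtctttttgcta
HCG11 1829: aaataccaattTGTAAATAtctttttgcta
NORAD 4657: attagcctattTGTAAATAcctttgttata
HCG11 4909: attagccaattTGTAAATAcctttttataa

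PUM2 fell in both lines, from 113 ± 6.29 to 43.9 ± 3.96 CPM (SD, n = 3) in H1299 and from 117 ± 11.3 to 62.7 ± 16 CPM in H1703 (-1.42 ± 0.09 and -0.88 ± 0.18, adjusted p = 2.5e-06 and 0.0031).

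JPX and FTX, lincRNAs of the X-inactivation centre that are transcribed in opposite directions, were lower with SAHA in H1299. JPX (chrX:73944184-74070408) was at 27.3, 28.6 and 29.9 CPM with DMSO and 17.6, 13.6 and 14 CPM with SAHA (-0.98 ± 0.13, adjusted p = 0.00013). FTX (chrX:73946555-74293574) was at 21.2, 20.7 and 24.2 CPM and then 14.6, 12.6 and 11.2 CPM (-0.84 ± 0.14, adjusted p = 0.00053). The groups of both genes were separate in H1299. In H1703 neither passed (-0.30 ± 0.13 for JPX and -0.32 ± 0.18 for FTX), but without H1703 SAHA library 3 both did (-0.37, adjusted p = 0.0384, and -0.51, adjusted p = 0.0208). JPX also passed there with library totals alone (-0.40, adjusted p = 0.0172) and in 1 fit over 12 libraries (-0.31, adjusted p = 0.0452). A difference between the lines passed for JPX (0.61 ± 0.18, adjusted p = 0.017) and not for FTX (0.44 ± 0.23, adjusted p = 0.16), though it did for FTX without H1703 SAHA library 2 (0.59, adjusted p = 0.048). The spans of the 2 genes overlap on opposite strands, and without a stated strand setting their reads cannot be told apart there.

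The list of lincRNAs linked to nuclear architecture matched 7 of the 120, the cytoplasmic NORAD included. Of these 7, 3 rose and 3 fell in H1299, beside 33.3% and 30.4% of all genes, and in H1703 NEAT1 and NORAD rose and PVT1 fell, beside 34.7% and 32.6%. Among all tested lincRNAs of the 120, 60% rose and 20.9% fell in H1299, and 47.3% and 25.9% in H1703. CRNDE, a lincRNA named for colorectal neoplasia, fell from 10.5, 9.87 and 9.73 CPM to 5.50, 5.91 and 8.61 CPM in H1299 (-0.64 ± 0.18, adjusted p = 0.012) and did not pass in H1703 (-0.25 ± 0.17). PVT1, which lies beside MYC, was called higher in H1299 (0.40 ± 0.14, adjusted p = 0.034) and lower in H1703 (-0.33 ± 0.13, adjusted p = 0.05). Its levels were 10.9, 9.34 and 9.85 CPM and then 14.7, 11.6 and 14.8 CPM in H1299, and 11.6, 13.9 and 12.7 CPM and then 10.4, 10.5 and 9.07 CPM in H1703. Both calls sat at the threshold. The H1703 call was lost with the replicate block (-0.33, adjusted p = 0.0803), with DESeq2, RLE size factors and both other filters (-0.32 to -0.36, adjusted p from 0.0551 to 0.108), and without H1703 DMSO 2 or 3 or any of the 3 SAHA libraries (-0.27 to -0.37, adjusted p from 0.0624 to 0.145). The H1299 call was lost with no filter on low counts (0.39, adjusted p = 0.0519) and without any of the 3 H1299 DMSO libraries or SAHA 1 or 3 (0.32 to 0.44, adjusted p from 0.0504 to 0.125). The effects differed by -0.80 ± 0.19 (adjusted p = 0.0055).

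Hosts of small nucleolar RNAs (snoRNAs), which guide chemical changes of ribosomal RNA, made up 4 of the listed genes. SNHG8, host of SNORA24, fell in both lines, from 41.0, 49.8 and 47.7 CPM to 27.5, 33.0 and 39.5 CPM in H1299 (-0.52 ± 0.14, adjusted p = 0.0093) and from 25, 23.0 and 21.5 CPM to 12.4, 15.6 and 12.3 CPM in H1703 (-0.77 ± 0.13, adjusted p = 0.00054). SNHG15, host of SNORA9, fell in H1703, from 18.6, 17.8 and 20.4 CPM to 8.86, 8.37 and 6.51 CPM (-1.24 ± 0.15, adjusted p = 5.2e-05). In H1299 SNHG15 was at 17.1, 23.8 and 18.2 CPM and then 21.6, 17.2 and 21 CPM, which overlap, and the difference between the lines passed (-1.28 ± 0.22, adjusted p = 0.0005). SNHG19, host of SNORD60, rose in H1299 from 21.6, 21.2 and 22 CPM to 27.0, 31.2 and 29.9 CPM (0.39 ± 0.10, adjusted p = 0.0083). In H1703 SNHG19 did not pass (0.29 ± 0.14, adjusted p = 0.094), but did without SAHA library 3 (0.39, adjusted p = 0.0224). EPB41L4A-AS1, host of SNORA13, passed in neither line (-0.19 ± 0.15 and -0.28 ± 0.14), but was called lower in H1703 with library totals alone (-0.39, adjusted p = 0.029). Genes for the proteins that bind snoRNAs were lower in 6 of 8 cases in H1299; in H1703, 5 were lower and 2 higher, beside 30.4% of all genes called lower in H1299 and 32.6% lower and 34.7% higher in H1703. DKC1, the pseudouridine synthase of these particles, fell by 1.17 ± 0.08 in H1299 and by 1.02 ± 0.07 in H1703.

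The list of microRNA hosts matched 5 of the 120, of which 4 were tested and rose in H1299, while 1 rose and 1 fell of 5 in H1703. The shares of all genes were 33.3% called higher in H1299 and 34.7% higher and 32.6% lower in H1703. Among all tested lincRNAs of the 120, which could reach 5 CPM through their SAHA libraries, 60% rose in H1299. In H1703 47.3% of them rose and 25.9% fell. By the hairpins of the RefSeq table the count was another one: 5 lincRNAs had a hairpin within their span (FTX, LINC00472, MEG3, MIR4435-2HG and MUC20-OT1, the last named for this count), and of 4 tested in H1299 2 rose and 1, FTX, fell, and of 5 in H1703 2 rose and 0 fell. The search missed some hairpins: in the deposited coordinates MIR22HG overlaps MIR22 and NEAT1 overlaps MIR612, for example. This count is therefore incomplete. MIR22HG, the host of miR-22, rose in H1299 from 7.80, 7.62 and 10.3 CPM to 15.8, 12.6 and 15.4 CPM (0.71 ± 0.16, adjusted p = 0.0038) and did not pass in H1703 (0.24 ± 0.19, adjusted p = 0.3). LINC00472 (chr6:71344344-71420769) was at 5.14, 3.61 and 4.87 CPM in H1299 with DMSO and at 9.80, 8.26 and 9.31 CPM with SAHA (0.95 ± 0.18, adjusted p = 0.0011). In H1703 it was at 4.40, 4.67 and 4.40 CPM and then 5.53, 4.07 and 4.54 CPM, which overlap (0.08 ± 0.18). H1703 minus H1299, the effect was -0.94 ± 0.25 (adjusted p = 0.0095). Within the span of LINC00472, on its strand, lie the hairpins of miR-30a and miR-30c-2, whose 5p arms share the seed GUAAACA. Within FTX lie those of miR-421 and miR-374b. Their mature sequences (RefSeq, GRCh38.p14) are printed with the seed, bases 2 to 8, in capitals, because both hosts changed in H1299; the mature RNAs themselves were not measured by these libraries.
hsa-miR-30a-5p: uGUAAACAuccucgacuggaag
hsa-miR-30c-5p: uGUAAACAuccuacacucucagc
hsa-miR-374b-5p: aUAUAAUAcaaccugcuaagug
hsa-miR-421: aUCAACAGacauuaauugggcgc

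CYTOR and MIR4435-2HG are near-identical copies on chromosome 2, with 99.1% identity over 6657 aligned columns and an identical run of 593 bases, so counts can be split between them. CYTOR was at 36.4, 34.6 and 33.2 CPM in H1299 with DMSO and 45.1, 53.1 and 60.6 CPM with SAHA (0.55 ± 0.12, adjusted p = 0.0026). In H1703 it was at 37.4, 38.4 and 37.0 CPM and then 28.8, 34.5 and 27.5 CPM (-0.30 ± 0.11, adjusted p = 0.033). The groups were separate in both lines. The fall in H1703 was no longer called with DESeq2 (-0.28, adjusted p = 0.0591) or without any 1 of the 3 DMSO libraries, SAHA 1 or SAHA 3 (-0.24 to -0.32, adjusted p from 0.0538 to 0.0928). MIR4435-2HG was called higher in H1299 (0.45 ± 0.16, adjusted p = 0.036), which was lost without DMSO 1, DMSO 2 or any of the SAHA libraries (0.25 to 0.48, adjusted p from 0.0622 to 0.119). In H1703 it did not pass (-0.39 ± 0.17, adjusted p = 0.069) but did with the replicate block (-0.41, adjusted p = 0.0349), with library totals alone (-0.49, adjusted p = 0.0309), with no filter on low counts (-0.42, adjusted p = 0.0356) and without SAHA 1 (-0.62, adjusted p = 0.00411). For both copies the difference between the lines passed (-0.92 ± 0.16 and -0.91 ± 0.25, adjusted p = 0.00057 and 0.013). The genes that cut and load microRNAs were lower in 5 of 5 cases in H1299 and 4 of 5 in H1703, beside 30.4% and 32.6% of all genes. AGO2, the slicing Argonaute, fell by 0.93 ± 0.08 in H1299 and 1.53 ± 0.09 in H1703.

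Among lincRNAs linked to p53 and stress, 4 of 6 tested rose in H1299 (33.3% of all genes), and 4 of 8 rose (34.7%) and 2 fell (32.6%) in H1703. The 2 that fell were CYTOR and PVT1, and with DESeq2 neither was called (adjusted p = 0.0591 and 0.108). Among all tested lincRNAs of the 120, 60% rose in H1299, and 47.3% rose and 25.9% fell in H1703. The rises on the list were near these shares, and any of these lincRNAs could reach 5 CPM through its SAHA libraries. PURPL (chr5:27472292-27496401), a lincRNA induced by p53, was measured at 4.66, 7.0 and 8.39 CPM in H1703 with DMSO and 42.2, 49.6 and 46.5 CPM with SAHA, a rise of 6.99-fold (2.81 ± 0.19, adjusted p = 2.6e-06). In H1299 its highest library, with SAHA, reached 1.25 CPM, and it was too low for the test. TP53TG1, named as a p53 target, rose in H1299 from 6.35, 6.15 and 8.04 CPM to 10.9, 10.7 and 9.84 CPM (0.56 ± 0.15, adjusted p = 0.0097). In H1703 it was at 7.72, 8.40 and 8.60 CPM and then 6.93, 6.92 and 7.30 CPM (-0.21 ± 0.13, adjusted p = 0.2); the difference between the lines was -0.84 ± 0.20 (adjusted p = 0.0044). LINP1, called after non-homologous end joining and described here after its values were seen, was at 0.544, 0.296 and 0.113 CPM in H1299 with DMSO and 2.99, 2.1 and 2.52 CPM with SAHA (2.93 ± 0.42, adjusted p = 0.00026). In H1703 LINP1 rose from 9.13, 8.34 and 8.25 CPM to 22.3, 25.1 and 18.3 CPM (1.37 ± 0.14, adjusted p = 2.2e-05).

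MEG3 (chr14:100779410-100861031), the imprinted lincRNA of the DLK1 region, was present in H1703 at 13.2, 19.5 and 13.6 CPM with DMSO and 43.0, 34.0 and 30.2 CPM with SAHA (1.23 ± 0.19, adjusted p = 0.00042). In H1299 it gave 3 counts over the DMSO libraries and 21 over the SAHA libraries, a ratio of 7.22 with a 95% counting interval of 2.16 to 37.8. Such intervals cover counting error only.

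UCA1 (chr19:15828961-15836320), first described in urothelial cancer, appeared in H1703 under SAHA. It gave 0, 2 and 0 counts in H1703 with DMSO and 375, 331 and 454 counts with SAHA, a ratio of 579 with a 95% counting interval of 160 to 4790. H1299 gave 0 counts over its DMSO libraries and 4 over its SAHA libraries. Of the 4 lung cancer linked lincRNAs, LINC00460 rose in both lines, from 3.26, 5.14 and 3.90 CPM to 10.1, 8.57 and 9.66 CPM in H1299 and from 1.21, 1.52 and 1.86 CPM to 4.40, 5.58 and 5.52 CPM in H1703 (1.15 ± 0.19 and 1.77 ± 0.23). LINC01116 passed in neither (0.30 ± 0.19 and -0.19 ± 0.15). LINC00667 was at 11.4, 18.0 and 19.5 CPM in H1299 with DMSO and 43.5, 47.9 and 67.8 CPM with SAHA (1.65 ± 0.25, adjusted p = 0.00084). In H1703 it was at 15.6, 16 and 14.7 CPM and then 21.9, 14.8 and 5.72 CPM (-0.11 ± 0.46), a spread set by SAHA library 3, without which the value was 0.26. Its difference between the lines (-1.83 ± 0.56, adjusted p = 0.03) was not called with the replicate block (-1.84, adjusted p = 0.0644), with no filter on low counts (-1.83, adjusted p = 0.0832) and without H1299 DMSO 1 or 2, H1299 SAHA 3, any H1703 DMSO library or H1703 SAHA 2 (-1.61 to -1.90, adjusted p from 0.0532 to 0.0666).

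The largest rise in H1299 was that of AC036222.1 (chr17:48460370-48466040), a gene with no further name in the files, which was also among the largest in H1703. It gave 3 counts over the 3 H1299 DMSO libraries and 1206 over the SAHA libraries, a ratio of 415 with a 95% counting interval of 142 to 2010. In CPM it went from 0, 0 and 0.170 to 22.6, 25.2 and 25.2 in H1299, and from 0.319, 0.117 and 0.206 to 22.6, 26.5 and 21 in H1703 (6.75 ± 0.25, adjusted p = 3.5e-08). It reached about the same level in both lines, from levels near 0 in both. AC005696.4, which GENCODE v44 lists as the protein-coding gene CCDC92B, went from 0.846, 0.473 and 0.623 CPM to 8.36, 10.2 and 9.66 CPM in H1299 and from 0.830, 0.992 and 2.20 CPM to 18.5, 16 and 17.5 CPM in H1703 (3.80 ± 0.23 and 3.72 ± 0.30). Its effects did not differ beyond the threshold (-0.14 ± 0.40, adjusted p = 0.83).

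FLJ20021 rose from 3.26, 3.43 and 3.11 CPM to 29.9, 33.1 and 35.1 CPM in H1299 (3.27 ± 0.13) and from 9.51, 10.6 and 8.87 CPM to 39.0, 39.9 and 33.8 CPM in H1703 (1.98 ± 0.12). The H1703 effect was the smaller (-1.36 ± 0.17, adjusted p = 2.6e-05). ATP2B1-AS1 rose 8.90-fold in H1299 and 5.50-fold in H1703 (3.15 ± 0.18 and 2.46 ± 0.19, adjusted p = 1.2e-06 and 2.5e-06). AC026304.1 rose 8.64-fold and 2.99-fold (3.11 ± 0.28 and 1.58 ± 0.25), and its difference between the lines was -1.60 ± 0.40 (adjusted p = 0.0066). AC026304.1 overlaps U2SURP, so reads of that gene may be counted in it.

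LINC00886 (chr3:156747346-156817062) and DUBR, named after their values were seen, rose in both lines and more in H1703. LINC00886 went from 1.81, 1.3 and 1.92 CPM to 11.2, 9.02 and 8.02 CPM in H1299 and from 3.32, 4.32 and 4.33 CPM to 34.8, 41.3 and 40.8 CPM in H1703 (2.42 ± 0.22 and 3.3 ± 0.15). Its difference between the lines (0.81 ± 0.26, adjusted p = 0.026) was no longer called with library totals alone (0.70, adjusted p = 0.0575) or without H1299 DMSO 1 or 3, H1299 SAHA 3, H1703 DMSO 1 or H1703 SAHA 2 (0.69 to 0.76, adjusted p from 0.0519 to 0.0817). DUBR went from 4.90, 5.56 and 6.68 CPM to 16.6, 14.3 and 13.5 CPM, and from 7.79, 9.22 and 6.88 CPM to 41.5, 42.9 and 51.9 CPM (1.32 ± 0.16 and 2.53 ± 0.14; difference 1.14 ± 0.22, adjusted p = 0.001).

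Besides UCA1 and AC036222.1, the largest rises in H1703 were of 4 lincRNAs that stood near 0 there under DMSO and were higher in H1299. LINC01419 gave 0 counts in the H1703 DMSO libraries and 22, 38 and 35 with SAHA, at least 31.6-fold higher against a floor of 3 counts over the group. AC003092.1 gave 1 count over the DMSO libraries and 98 with SAHA, a ratio of 97.8 with a 95% counting interval of 17.2 to 3900. LINC02432 went from 0.128, 0 and 0.138 CPM to 3.06, 2.15 and 3.09 CPM (4.92 ± 0.53), and AC092490.1 from 0.192, 0.117 and 0 CPM to 2.73, 3.31 and 2.76 CPM (4.72 ± 0.49). In H1299 these 4 genes were at 22.9, 2.94, 16.2 and 52.5 CPM on average with DMSO and rose to 44.2, 20.9, 26.7 and 141 CPM. Even with SAHA, their means in H1703 (1.99, 2.06, 2.77 and 2.94 CPM) remained below the H1299 DMSO means.

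LINC00941 (chr12:30795681-30802711), a lincRNA studied in several carcinomas, showed the largest fall in both lines. It was at 20.7, 23.2 and 23.9 CPM in H1299 with DMSO and 3.82, 3.87 and 4.51 CPM with SAHA, and at 12.3, 13.0 and 12 CPM in H1703 with DMSO and 0.999, 0.755 and 1.71 CPM with SAHA. The groups lay far apart in both lines. The fall was 5.76-fold in H1299 (-2.53 ± 0.13, adjusted p = 7.5e-07) and 10.7-fold in H1703 (-3.41 ± 0.25, adjusted p = 2e-06). The larger fall in H1703 passed as a difference (-0.96 ± 0.28, adjusted p = 0.017), and without H1703 SAHA library 2 it was -0.72 and did not pass (adjusted p = 0.0532).

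AL391121.1, listed as TRIM8-DT in GENCODE v44, fell from 21.8, 22.8 and 19.1 CPM to 7.41, 8.0 and 7.79 CPM in H1299 and from 11.2, 10.0 and 12.4 CPM to 6.99, 7.73 and 5.98 CPM in H1703 (-1.51 ± 0.12 and -0.68 ± 0.15). FP236241.1, on the short arm of chromosome 21, fell by 1.2 ± 0.20 and 2.28 ± 0.16 on the log2 scale. LINC01123 fell by 1.11 ± 0.16 and 0.63 ± 0.18. CU633967.1, on the same chromosome arm as FP236241.1, was at 30.9, 28.6 and 9.97 CPM in H1703 with DMSO and 2.46, 2.27 and 2.23 CPM with SAHA (-3.3 ± 0.49, adjusted p = 0.0014); DMSO library 3 was far lower than the other two. In H1299 CU633967.1 did not pass (-0.75 ± 0.42), and its difference between the lines (-2.62 ± 0.70, adjusted p = 0.014) had an adjusted p of 0.0508 without the filter on low counts. FOXD2-AS1, named after its values were seen, fell in H1703 (-1.50 ± 0.31, adjusted p = 0.0021) and did not pass in H1299 (-0.17 ± 0.18), and the difference between the lines passed (-1.40 ± 0.34, adjusted p = 0.005).

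5 lincRNAs were called in opposite directions, each higher in H1299 and lower in H1703: LINC02593, AC245041.2, AC006058.1, CYTOR and PVT1. LINC02593 (chr1:916865-921016) went from 1.39, 1.06 and 1.13 CPM to 11.9, 12.6 and 10.5 CPM in H1299 (3.22 ± 0.18, adjusted p = 1.1e-06). In H1703 it went from 9.13, 7.70 and 9.70 CPM to 2.20, 3.49 and 2.17 CPM (-1.73 ± 0.22, adjusted p = 7.3e-05). The level with SAHA in H1299 was thus close to that with DMSO in H1703, and the difference between the effects was -5.02 ± 0.30 (adjusted p = 2.9e-08). LINC02593 kept both calls under all 13 alternatives run in each line.

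AC245041.2 was low in H1299, at 0.242, 0.0591 and 0.340 CPM with DMSO and 0.836, 0.699 and 1.23 CPM with SAHA, and in H1703 went from 16.3, 19.8 and 18.5 CPM to 3.53, 2.73 and 3.35 CPM (2.01 ± 0.53 and -2.49 ± 0.16; difference -4.58 ± 0.46, adjusted p = 3.6e-06). AC006058.1 went from 0.665, 0.473 and 1.02 CPM to 1.67, 0.953 and 1.93 CPM in H1299, which overlap, and from 21, 23.2 and 23.1 CPM to 8.33, 6.22 and 6.97 CPM in H1703 (1.02 ± 0.39 and -1.63 ± 0.14; difference -2.72 ± 0.37). The H1299 call of AC006058.1 (adjusted p = 0.045) was lost with DESeq2 (1.04, adjusted p = 0.0855), with no filter on low counts (1.01, adjusted p = 0.0502) and without H1299 DMSO 1 or 2 or SAHA 1 or 3 (0.77 to 0.95, adjusted p from 0.114 to 0.165). The number of lincRNAs called in opposite directions was 2 with DESeq2 and 3 to 5 when single libraries were left out; it was 3 without H1299 DMSO 1 or 2, H1299 SAHA 1 or 3, H1703 DMSO 2 or 3, or H1703 SAHA 3. AC245041.2 overlaps NPY4R2, so reads of that gene may be counted in it.

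Promoter windows are printed for 3 lincRNAs chosen after their values were seen: LINC00941, with the largest fall in both lines, LINC00886, which rose in both lines, and LINC02593, with the largest difference among those called in opposite directions (RefSeq, GRCh38.p14, 250 bases before to 50 after the start, read 5′ to 3′ on the gene's strand). The windows are chr12:30795431-30795730 on the plus strand for LINC00941, chr3:156817013-156817312 on the minus strand for LINC00886 and chr1:919643-919942 on the minus strand for LINC02593. The LINC02593 window lies inside the deposited span of that gene (chr1:916865-921016) and not at an end of it. That window thus belongs to a RefSeq start other than the start of the measured span. Capitals mark the motifs found on either strand: the GC box GGGCGG and the CCAAT box in these windows.
LINC00941: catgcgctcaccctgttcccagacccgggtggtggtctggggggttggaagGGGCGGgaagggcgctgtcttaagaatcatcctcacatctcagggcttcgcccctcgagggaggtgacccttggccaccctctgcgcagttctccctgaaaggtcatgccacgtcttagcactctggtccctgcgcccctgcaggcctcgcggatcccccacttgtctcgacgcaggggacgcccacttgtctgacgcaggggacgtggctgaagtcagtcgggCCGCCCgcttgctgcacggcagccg
LINC00886: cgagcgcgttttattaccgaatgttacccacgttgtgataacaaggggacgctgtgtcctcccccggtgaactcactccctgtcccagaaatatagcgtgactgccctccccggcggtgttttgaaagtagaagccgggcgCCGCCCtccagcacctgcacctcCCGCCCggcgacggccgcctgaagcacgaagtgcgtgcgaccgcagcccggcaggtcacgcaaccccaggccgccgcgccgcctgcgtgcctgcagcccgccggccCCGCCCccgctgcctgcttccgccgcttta
LINC02593: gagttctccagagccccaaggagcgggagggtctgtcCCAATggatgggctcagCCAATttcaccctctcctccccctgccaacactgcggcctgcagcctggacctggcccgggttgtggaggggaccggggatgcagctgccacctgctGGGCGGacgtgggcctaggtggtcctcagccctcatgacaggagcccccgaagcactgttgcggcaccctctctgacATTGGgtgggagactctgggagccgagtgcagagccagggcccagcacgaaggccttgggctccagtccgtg

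A RefSeq promoter was matched by symbol for 69 of the 120 lincRNAs. GGGCGG was found on either strand in 63.8% of them and in 45% of all 35116 promoters of the table, CCAAT in 46.4% and 34.6%, TATAAA in 10.1% and 11.5%, TGACGT in 7.25% and 7.98%, TGANTCA in 10.1% and 7.71%, and CACGTG in 7.25% and 7.26%. The median GC content was 63.3% against 58.7%. GGGCGG was in 13 of 17 promoters of lincRNAs that rose in both lines and 6 of 9 of those that fell in both. Counts this small cannot tell whether the motif differs between the directions, which was not tested. A matched window need not lie at the start of the deposited gene, as for LINC02593. A match is a description of the letters in the window.

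Many of the lincRNAs were close to silent in one line. A mean below 0.5 CPM under DMSO in H1703 with 5 CPM or more in H1299 was found for 12: AC012617.1, AC016590.1, AC020928.1, AC092490.1, DSCR8, FAM225A, FAM225B, LINC00665, LINC01419, LINC01896, LINC02432 and ZNF667-AS1. The reverse was found for 6: AC092118.1, AC245041.2, IGFL2-AS1, LINP1, MEG3 and PURPL. In the line that expressed them, 8 of the 12 rose with SAHA and 2 fell, and 5 of the 6 rose and 1 fell, beside 33.3% and 30.4% of all genes in H1299 and 34.7% and 32.6% in H1703. These lincRNAs too could reach 5 CPM through their SAHA libraries. In the line that did not, SAHA brought the mean to 0.5 CPM or more for 4 of the 12 and 3 of the 6.

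**Figure D3:**
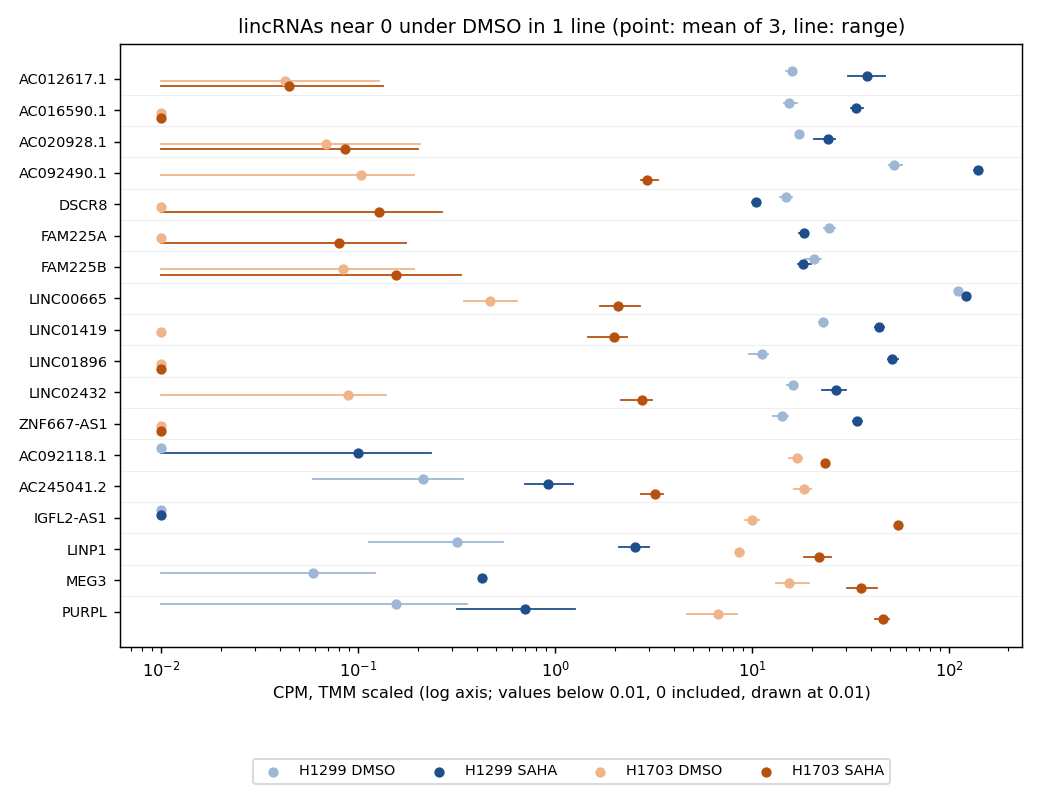
CPM after TMM scaling (horizontal log axis, values below 0.01 drawn at 0.01) of the 18 lincRNAs near 0 under DMSO in 1 line, with the mean of 3 libraries as a point and their range as a line, for each of the 4 groups. In the silent line LINC01896, ZNF667-AS1, AC016590.1 and IGFL2-AS1 had 0 counts with and without SAHA, whereas LINC01419, AC092490.1, LINC02432, LINC00665 and LINP1 moved up.

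The 18 lincRNAs near 0 in 1 line include some that are described here after their values were seen: LINC00665, LINC01896, ZNF667-AS1 and LINP1. LINC00665 (chr19:36313067-36331718) was among the most unequal at 112, 110 and 110 CPM in H1299 with DMSO and 0.638, 0.408 and 0.344 CPM in H1703, 234-fold lower (-7.87 ± 0.18, adjusted p = 2e-13). With SAHA it rose to 1.86, 1.69 and 2.69 CPM in H1703 (2.16 ± 0.36, adjusted p = 0.00051), and it did not pass in H1299 (118, 122 and 124 CPM, 0.08 ± 0.07). The effects differed by 2.00 ± 0.26 (adjusted p = 4.4e-05). LINC01896, ZNF667-AS1 and AC016590.1 gave 0 counts in all 6 H1703 libraries. In H1299 they rose from means of 11.2, 14.1 and 15.4 CPM to 51.3, 34.0 and 33.7 CPM (2.14 ± 0.12, 1.21 ± 0.11 and 1.07 ± 0.11). Under DMSO they were at least 177-fold, 223-fold and 244-fold higher in H1299 against a floor of 3 counts over the group. IGFL2-AS1 was the reverse case, with 0 counts in all 6 H1299 libraries and 10.8, 9.92 and 9.15 CPM in H1703 with DMSO, which rose to 56.6, 53.3 and 54.9 CPM (2.48 ± 0.10, adjusted p = 6.4e-08).

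DSCR8 and FAM225A were expressed in H1299, where both fell with SAHA. DSCR8 was at 13.8, 15.8 and 15.1 CPM with DMSO and 9.92, 10.7 and 10.7 CPM with SAHA (-0.57 ± 0.12, adjusted p = 0.0024). FAM225A was at 23.9, 26.3 and 23.1 CPM and then 17.3, 18.9 and 18.7 CPM (-0.47 ± 0.11, adjusted p = 0.0037). FAM225A and its copy FAM225B share an identical run of 5455 bases, so their counts cannot be told apart. In 1 fit over 12 libraries neither DSCR8 (-0.51, adjusted p = 0.0548) nor FAM225A (-0.42, adjusted p = 0.0535) was called in H1299, and AC092118.1, the next gene, was not called in H1703 (0.48, adjusted p = 0.0526). In H1703 DSCR8 gave 0 counts with DMSO and 6 with SAHA, and FAM225A 0 and 4. AC092118.1, expressed in H1703, rose there from 17.8, 15.3 and 17.3 CPM to 24.4, 22.9 and 22.8 CPM (0.49 ± 0.11, adjusted p = 0.0026) while H1299 gave 0 counts over its DMSO libraries and 5 over its SAHA libraries.

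Under DMSO, 31 of the 120 were higher in H1703 and 55 lower, with 34 that did not pass, beside 34.3% of 19105 genes called higher and 32.2% called lower (66.5% in either direction). The median difference was -0.25, and the same over all genes was 0.00. Among the 57 with 5 CPM or more under DMSO in both lines, 16 were higher and 20 lower (median -0.06), where all genes that met the same rule were higher in 34.4% and lower in 34% of cases. The 120 also hold 18 lincRNAs that were near 0 under DMSO in 1 line and reached 5 CPM through the other. Scaling to library totals alone moved the median of all genes in this comparison by -0.19, and gave 23 higher and 62 lower of the 120.

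The SAHA effect itself differed between the lines for 54 of the 120. The log2 value in H1703 minus that in H1299 was positive for 18 and negative for 36, beside 13.7% and 21.2% of 19105 genes (34.9% in either direction). A positive difference can be a smaller fall in H1703, as for HCG11 and JPX, and a negative one a larger fall there, as for LINC00941. The difference was at least 2-fold for 13 and 20 of them, beside 6.09% and 12.7% of all genes. Among the 57 lincRNAs with 5 CPM or more under DMSO in both lines the counts were 8 and 18, beside 16% and 22.1% of all genes that met that rule. Both SAHA effects enter this difference, so it shares its samples with the comparisons within each line.

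By the GENCODE v44 annotation, in which 118 of the 120 were found by identifier, 33 start within 1000 bases of a protein-coding gene transcribed the other way, an arrangement called head to head. Of these 33, 25 rose and 3 fell in H1299 (median log2 fold change 1.03), and of 29 tested in H1703 16 rose and 3 fell (median 0.48). All genes were called higher in 33.3% and 34.7% of cases and lower in 30.4% and 32.6%, but the lincRNAs could reach 5 CPM through their SAHA libraries. Of the 85 others found in the annotation, 43 of 80 tested rose and 20 fell in H1299 (median 0.47), and 36 of 81 rose and 25 fell in H1703 (median 0.24). The partners rose in 11 of 33 pairs in H1299 and fell in 9, and rose in 10 of 29 and fell in 10 in H1703, near the shares of all genes. In H1299 both rose in 9 pairs, both fell in 2, the lincRNA rose and the partner fell in 5, and in 11 the lincRNA rose and the partner did not pass. In H1703 both rose in 8 and both fell in 1, the lincRNA rose and the partner fell in 3, and in 5 the lincRNA rose and the partner did not pass.

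**Figure D4:**
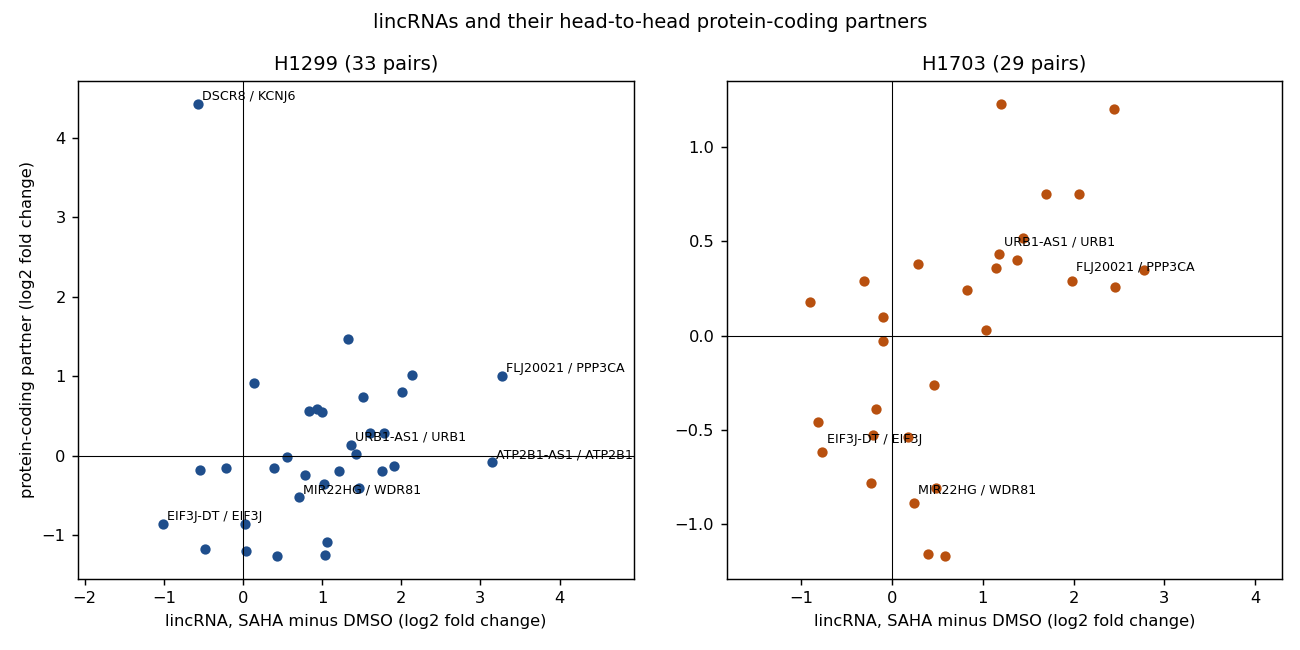
SAHA minus DMSO of the lincRNA (horizontal axis) against that of its head-to-head protein-coding partner (vertical axis), as log2 fold changes, in H1299 (left, 33 pairs) and H1703 (right, 29 pairs); each point is 1 pair, and the vertical scales of the panels differ. Most lincRNAs lie to the right of 0, while the partners lie on both sides.

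FLJ20021 and PPP3CA, the catalytic subunit of calcineurin, start 526 bases apart, and both rose in both lines. PPP3CA went from 45.5 ± 1.11 to 94.8 ± 5.63 CPM (SD, n = 3) in H1299 (1.00 ± 0.09, adjusted p = 9.8e-06) and from 82.6 ± 1.07 to 99.4 ± 5.04 CPM in H1703 (0.29 ± 0.07, adjusted p = 0.0069). The spans of the pair overlap, so part of the counts could be shared. ATP2B1-AS1 and ATP2B1, a plasma membrane calcium pump, start 407 bases apart; ATP2B1 did not pass in H1299 (-0.08 ± 0.12) and rose slightly in H1703 (0.26 ± 0.08, adjusted p = 0.016).

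MIR22HG and WDR81 parted in H1299, where the lincRNA rose and WDR81 fell (-0.52 ± 0.10, adjusted p = 0.0018). DSCR8 fell in H1299 while KCNJ6, a potassium channel gene that starts 106 bases away, was called higher from 0.0386 ± 0.0334 to 1.03 ± 0.348 CPM.

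The pairs URB1-AS1 with URB1 and EIF3J-DT with EIF3J start 83 and 79 bases apart, so 1 promoter window covers both starts. URB1-AS1 rose from 10.8, 11.7 and 10.6 CPM to 29.7, 28.2 and 30.4 CPM in H1299 (1.36 ± 0.11) and from 5.36, 4.38 and 4.88 CPM to 11.5, 13.5 and 7.69 CPM in H1703 (1.18 ± 0.21). URB1, a ribosome biogenesis factor, did not pass in H1299 (0.14 ± 0.09) and rose in H1703 (0.43 ± 0.08, adjusted p = 0.0008). EIF3J-DT fell with EIF3J, a translation initiation factor: the lincRNA from 7.92, 7.15 and 9.39 CPM to 4.12, 4.45 and 4.04 CPM in H1299 and from 4.72, 5.66 and 4.40 CPM to 2.73, 2.67 and 3.15 CPM in H1703 (-1.01 ± 0.17 and -0.77 ± 0.19). EIF3J fell by 0.85 ± 0.12 and 0.62 ± 0.16. Their shared windows, chr21:32392883-32393182 on the plus strand for URB1-AS1 and chr15:44536874-44537173 on the minus strand for EIF3J-DT, are printed for a lincRNA that rose in both lines, with a partner that rose in H1703, and for a pair that fell in both lines; capitals mark GGGCGG and, in EIF3J-DT, also TGANTCA.
URB1-AS1: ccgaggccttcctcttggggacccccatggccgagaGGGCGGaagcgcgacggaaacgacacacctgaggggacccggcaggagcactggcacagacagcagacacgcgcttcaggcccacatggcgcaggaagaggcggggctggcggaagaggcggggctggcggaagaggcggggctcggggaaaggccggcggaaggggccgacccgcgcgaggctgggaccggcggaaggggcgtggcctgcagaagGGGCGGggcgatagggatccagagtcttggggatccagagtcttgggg
EIF3J-DT: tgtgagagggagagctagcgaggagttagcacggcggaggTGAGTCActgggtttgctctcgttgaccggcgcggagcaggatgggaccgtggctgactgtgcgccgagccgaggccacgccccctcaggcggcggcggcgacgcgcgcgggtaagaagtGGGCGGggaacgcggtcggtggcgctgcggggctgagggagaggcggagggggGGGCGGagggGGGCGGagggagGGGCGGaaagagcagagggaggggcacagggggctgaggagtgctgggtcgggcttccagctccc

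Levels were compared between genes only per length, by the deposited fragments per kilobase of gene model and 1000000 fragments (FPKM). AC021224.1, the highest on average (128 FPKM over 12 libraries), stood at 225 ± 3.56 FPKM (SD, n = 3) in the H1299 controls and 113 ± 7.46 after SAHA, then at 101 ± 5.98 and 72.8 ± 4.52 in H1703. It fell in both lines (-1.06 ± 0.09 and -0.37 ± 0.09, adjusted p = 8e-06 and 0.0045). It overlaps HNRNPA1P7, a pseudogene of an abundant messenger RNA, so its level is uncertain. SNHG19 (70.7 FPKM on average) and NORAD (67.0 FPKM) came next, and URB1-AS1 (17.6), AC036222.1 (17.0), FLJ20021 (16.6) and SNHG8 (16.5 FPKM) were lower. SNHG19 and NORAD did not hold the same order in every group: NORAD was the higher in H1299 with DMSO (77.9 ± 4.90 against 68.3 ± 2.04 FPKM) and in H1703 with SAHA (85.5 ± 7.94 against 64.1 ± 11.1), and SNHG19 in the other two. Single groups of the 4 genes from URB1-AS1 to SNHG8 ranged from 0.0883 ± 0.153 FPKM for AC036222.1 in the H1299 controls to 38.7 ± 1.51 FPKM for URB1-AS1 in H1299 with SAHA.

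Of the 120 lincRNAs, 62 overlap at least 1 other gene in the deposited coordinates and 23 overlap a protein-coding gene. The labels describe the libraries both as strand-specific and as un-stranded, so reads of an overlapping or antisense gene cannot be told apart from those of the lincRNA.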

How the data were processed

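Poly(A) RNA of 12 samples was sequenced, per the labels' protocols. The authors deposited whole-number counts per gene and FPKM (fragments per kilobase per 1000000) for each line, as named in the file headers. Per the submitters' processing notes, the build was GRCh38 and the tools were HISAT2 2.1.0, StringTie 1.3.3b, FastQC 0.11.9, fastp and edgeR 3.30.3, with no role stated. No source used here gives the annotation release, the counting tool or its strand setting, and an overlapping gene's reads may enter a lincRNA's count.

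The 120 lincRNAs, the lists and the tests were chosen with earlier results of these data known. The deposited counts entered edgeR 4.0.16 (R 4.3.3): genes were kept with filterByExpr (at least 10 counts, 15 in total), scaled by TMM, fitted by robust quasi-likelihood and adjusted by Benjamini-Hochberg over all genes tested. Each line was fitted on its 6 libraries. The difference between lines and the difference under DMSO came from 1 fit over 12. The standard error is the absolute log2 fold change divided by the square root of F. Libraries held 14.4 × 1000000 to 19.4 × 1000000 counts. Printed CPM are TMM-scaled over the 12 libraries, and ratios of low counts use exact 95% intervals, with a floor of 3 counts for groups at 0. Alternatives were DESeq2 1.42.0, RLE size factors, library totals alone, no filter on low counts, a mean of 1 CPM or more, 1 fit over 12 libraries, leaving out each library, a replicate block and other thresholds for the lincRNAs.

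The labels' batch tag is the replicate number, which alone does not show that same-numbered samples came from the same culture or run. Deviations of same-numbered libraries correlated at -0.043 to 0.035, and those of other-numbered ones at -0.096 to 0.110. The main fits do not use the number, and the replicate block does. Named were the 6 largest rises and falls per line, the 4 largest each way in both differences between lines, lincRNAs called in opposite directions, the 8 highest FPKM, and every lincRNA of the role lists; others are said to be named after their values were seen. A few items are not reported here. On simulated data the test recovered 46 of 50 genes raised 2-fold in H1299, 45 of 50 in H1703 and 26 of 50 for the difference between lines. Few genes were changed in the simulation and all had the same spread, so these rates need not hold for the data. Promoters and microRNAs are RefSeq's (GRCh38.p14), and neighbours, transcripts and strands are from GENCODE v44, matched by identifier.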

Additional observations from a re-analysis of the deposited data

Results flagged for a closer look

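The SAHA effect differed between the lines, by the test of the difference itself in edgeR, for 54 lincRNAs, with a positive difference for 18 and a negative one for 36, beside 13.7% and 21.2% of all genes tested. All values here are H1703 minus H1299 on the log2 scale, and not every lincRNA that passed is listed. The most negative values were those of LINC02593 at -5.02 and AC245041.2 at -4.58. Further negative values, among others, were those of AC006058.1 (-2.72), CU633967.1 (-2.62), LINC00667 (-1.83), LINP1 (-1.63), AC026304.1 (-1.60), FOXD2-AS1 (-1.40), FLJ20021 (-1.36), SNHG15 (-1.28) and FP236241.1 (-1.15). Differences under 2-fold passed, among others, for LINC00941 (-0.96), LINC00472 (-0.94), CYTOR (-0.92), MIR4435-2HG (-0.91), TP53TG1 (-0.84), PVT1 (-0.80), ATP2B1-AS1 (-0.77) and NEAT1 (-0.69). That of ATP2B1-AS1 was lost with DESeq2 (-0.70, adjusted p = 0.0882), RLE size factors, no filter on low counts and without H1299 DMSO 2 or 3, H1299 SAHA 1, H1703 DMSO 3 or H1703 SAHA 3 (-0.66 to -0.71).

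Positive differences passed, among others, for JPX (0.61), AC021224.1 (0.62), AL391121.1 (0.76), LINC00886 (0.81), DUBR (1.14), HCG11 (1.35), NORAD (1.79), LINC00665 (2.00), AC092490.1 (3.28), AC003092.1 (3.33), FAM225A (4.0), LINC02432 (4.18), DSCR8 (4.64) and LINC01419 (7.08). JPX, AC021224.1, AL391121.1 and HCG11 have negative log2 values in both lines, closer to 0 in H1703. LINC01419, DSCR8 and FAM225A had 0 counts in H1703 under DMSO, so their fitted values depend on the prior count and are no bounds. DSCR8 was not called without H1703 SAHA 1 (3.69, adjusted p = 0.0918). FAM225A was not called with no filter on low counts (4.01, adjusted p = 0.056), nor without any 1 of the H1703 DMSO libraries (3.99 to 4.01, adjusted p from 0.0666 to 0.0776), nor without H1703 SAHA 2 (2.82, adjusted p = 0.251).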

How the results depend on the processing

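Of the values of named lincRNAs under all alternatives, 3147 kept direction and side of the threshold, 109 fell short of it, 27 newly passed and 20 changed sign; of the counts, 318 stayed within 1.5 times and 14 did not. The cause was not tested, except that a stricter rule leaves fewer lincRNAs. With a threshold of 10 CPM, 34 rose in H1299, and 27 rose and 15 fell in H1703. With 5 CPM or more under DMSO in both lines, 20 rose in H1299 and 15 in H1703. The 5 opposite calls were 2 with DESeq2, 3 with a mean of 1 CPM or more, and 3 to 5 with a library left out. With the replicate block, which pairs the libraries by number, 68 rose and 23 fell in H1299, 52 and 27 in H1703, and 18 and 31 differed between the lines.

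Signs changed only for values that did not pass, in the log2 values below. With library totals alone, CYTOR under DMSO was -0.08, NORAD in H1299 0.00, SNHG15 in H1299 0.04 and LINC00472 in H1703 -0.02. In 1 fit over 12 libraries SNHG15 in H1299 was 0.02, and with the replicate block LINC00472 under DMSO was 0.00. With a library left out, the difference between lines ranged from -0.39 to 0.39 for AC005696.4 and from -0.64 to 1.39 for PURPL. SNHG15 ranged from -0.15 to 0.10 both in H1299 and under DMSO, and LINC00472 from -0.05 to 0.18 in H1703 and -0.15 to 0.08 under DMSO. LINC01116 under DMSO ranged from -0.15 to 0.01, and LINC00667 from -0.57 to 0.26 in H1703 and -0.28 to 0.07 under DMSO. On simulated data a 1.5-fold change was found for 24 of 50 genes in H1299 and 11 of 50 in H1703. It was found for 19 of 50 under DMSO and 7 of 50 for the difference between lines. The simulation changed far fewer genes than were called in the data and gave all genes the same spread, so these rates do not carry over. A lincRNA that did not pass may still have changed.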
